A study of Mus musculus with 9 samples.

Results

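The Toll-like receptor family was followed through RNA-seq of mouse peritoneal macrophages, as 10 receptor genes (Tlr1, Tlr2, Tlr3, Tlr4, Tlr5, Tlr6, Tlr7, Tlr8, Tlr9 and Tlr13) among the 54059 genes of the deposited table. The members were chosen by symbol, through the GENCODE M21 annotation of the gene identifiers. They fall into 5 receptors that act at the cell surface (Tlr1, Tlr2, Tlr4, Tlr5 and Tlr6) and 5 that act in endosomes (Tlr3, Tlr7, Tlr8, Tlr9 and Tlr13). Macrophages came from C57BL/6 mice. The sample annotation gives an age of 8 weeks, and the study's RNA-seq methods give 8 to 10 weeks for wild-type and M-Shp2-/- mice. Cells were collected from the peritoneal cavity 3 days after an injection of 1 ml starch broth, and only adherent cells were kept. The study has 3 groups of 3 libraries. Wild-type cells received imiquimod (IMQ), a small-molecule agonist of TLR7, at 10 µg/ml for 4 h. M-Shp2-/- cells came from Lyz2-cre:Shp2 fl/fl mice (genotype SHP2lyz2-/- in the labels), in which the phosphatase SHP2 is deleted in cells that express the myeloid gene Lyz2, and also received IMQ for 4 h, at a dose the sources used here do not give for this group. The SHP099 group was wild type, pretreated with 10 µM of the allosteric SHP2 inhibitor SHP099 for 2 h and then given IMQ at 10 µg/ml for 4 h. The IMQ and SHP099 treatments are known from the study's methods and figure legends, not from the labels. No library without IMQ was analysed here, so no value describes the response to IMQ itself. The design asks whether deleting SHP2 or inhibiting it with SHP099 goes with a difference in gene expression, and here that is asked of the receptors.

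Toll-like receptors are sensors of innate immunity that recognise conserved microbial molecules and signal through the adaptors MyD88 and TRIF to NF-kappaB and interferon regulatory factors. Surface receptors bind bacterial lipoproteins, lipopolysaccharide and flagellin, whereas endosomal receptors bind nucleic acids and depend on the chaperone UNC93B1 to leave the endoplasmic reticulum and on proteases in the endosome to mature. Macrophages carry members of both classes, and IMQ enters the endosome to reach TLR7.

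Values were deposited as FPKM, which scale reads by gene length and by library depth. The values fit whole reads, with a depth between 39842640 and 50980734 reads per library, so 3 reads of a receptor of this family correspond to an FPKM between 0.0169 for Tlr9 in wild-type replicate 2 and 0.0473 for Tlr8 in SHP099 replicate 2. This floor covers counting error only. The labels do not say that the libraries of a group came from separate animals, so p-values measure only the spread between these samples, which may be technical. Both comparisons with wild type share the same 3 wild-type libraries.

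Ptpn11, the gene of SHP2, was read first as a check of the labels. Its FPKM was 45.8, 44.0 and 39.99 in wild-type replicates 1 to 3, 18.6, 17.8 and 18.9 in the M-Shp2-/- replicates and 43.0, 42.1 and 39.6 in the SHP099 replicates. Every M-Shp2-/- library lay below every other library, and the SHP099 libraries overlapped the wild type. The log2 difference of M-Shp2-/- from wild type was -1.19 (95% interval -1.42 to -0.96), with an adjusted p of 0.0168 from limma (n = 3 per group). Over the alternatives that adjusted p ran from 0.00186 to 0.196, and the call was lost without wild-type replicate 1 (0.105), wild-type replicate 2 (0.125), M-Shp2-/- replicate 1 (0.196) or M-Shp2-/- replicate 2 (0.151), while the difference remained between -1.24 and -1.15 in these fits. Without M-Shp2-/- replicate 3 the difference was -1.21 (0.0473).

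M-Shp2-/- replicate 3 stood apart from its group. On log2 values it correlated with M-Shp2-/- replicates 1 and 2 at 0.967 and 0.954, against 0.992 between those 2 libraries. The correlation was 0.974 to 0.984 between wild-type libraries and 0.988 to 0.991 between SHP099 libraries. The receptor calls, class shares and named differences from wild type of the M-Shp2-/- group are therefore given with and without replicate 3 in the main analysis. Values under an alternative setting are mostly given with all libraries, and other values are shown library by library. The libraries carried the macrophage markers: all 7 genes of the macrophage list were tested, and their summed FPKM was 9416, 12033 and 9694 in the wild-type, 6890.1, 6879 and 7192 in the M-Shp2-/- and 11009, 12071 and 12560 in the SHP099 libraries. Most of that sum was Lyz2, the lysozyme gene whose promoter drives the Cre in M-Shp2-/- mice. The marker list of resident peritoneal macrophages, with Prg4 as its most abundant gene, summed to 8.84 to 29.3 FPKM over the 9 libraries. Exons of Prg4 overlap Tpr on the opposite strand, which had a mean FPKM of 133, so part of that sum may be reads of Tpr. Gata6, the transcription factor that defines resident cells, was between 0.380 and 2.97 FPKM, and Timd4, their phosphatidylserine receptor, between 0.139 and 1.63 FPKM. Both were chosen after their values were seen. In bulk RNA, fewer cells of a type and less RNA per cell cannot be told apart.

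The receptors differed widely in level. On the FPKM scale, over all 9 libraries, Tlr2 was the most abundant at 347 ± 60.3 (SD, n = 9), followed by Tlr7 at 75.5 ± 18.4, Tlr1 at 62.4 ± 10.6 and Tlr13 at 51.3 ± 9.63. Tlr8 at 35.05 ± 21.3, Tlr6 at 25.6 ± 3.95 and Tlr4 at 20.8 ± 5.01 came next, and Tlr3 at 2.79 ± 0.637, Tlr9 at 0.521 ± 0.444 and Tlr5 at 0.00997 ± 0.0194 were lowest. The ranges over libraries did not overlap between Tlr2 and Tlr7, Tlr4 and Tlr3, Tlr3 and Tlr9, or Tlr9 and Tlr5, whereas the neighbours from Tlr7 down to Tlr4 overlapped and have no firm order. FPKM here divides by the mean length of a gene's annotated transcripts. Dividing by the longest transcript instead placed Tlr1 (42.8) above Tlr7 (39.2), let the ranges of Tlr3 and Tlr9 overlap, and left the rest of the order as it was. This alternative was chosen after seeing the data. Tlr11 and Tlr12, further mouse receptors outside the 10, had 2 and 3 reads in all libraries together.

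**Figure D1:**
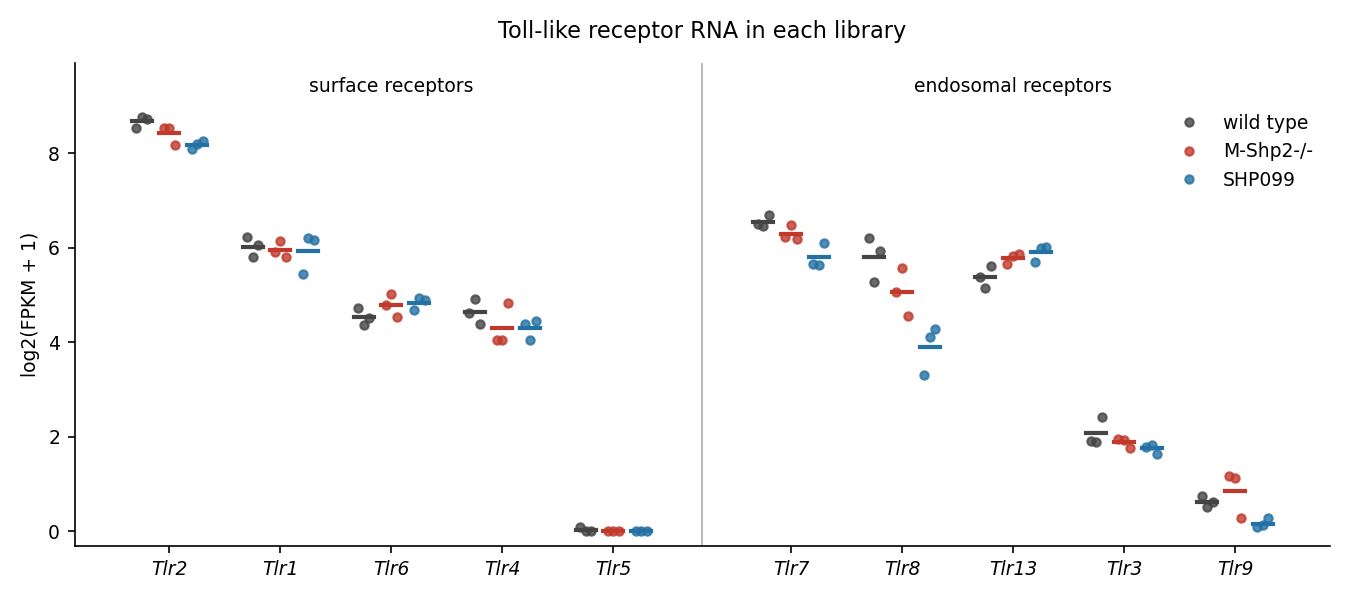
Level of each receptor as log2(FPKM + 1) in each library, with surface receptors on the left and endosomal receptors on the right. Points are single libraries of wild type, M-Shp2-/- and SHP099 and bars are group means (n = 3). Tlr2 is highest, Tlr5 is near 0, and the SHP099 points of Tlr2, Tlr7 and Tlr8 lie below all wild-type points.

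Among the endosomal receptors, Tlr7 and Tlr8 were lower in SHP099-treated cells and Tlr13 was not. Tlr7, the receptor of single-stranded RNA and of IMQ, lies on chromosome X of GRCm38 from 167304929 to 167330558. Its FPKM was 89.6, 87.0 and 103 in the wild-type, 73.8, 88.5 and 71.97 in the M-Shp2-/- and 49.6, 48.7 and 67.8 in the SHP099 libraries. All SHP099 libraries were below all libraries of the other groups, and the M-Shp2-/- and wild-type libraries overlapped through M-Shp2-/- replicate 2. Tlr8, a related sensor of RNA breakdown products, is its neighbour, with 40599 bases between the annotated genes. The FPKM of Tlr8 was 72.3, 37.5 and 60.3 in the wild-type, 32.4, 46.6 and 22.6 in the M-Shp2-/- and 8.93, 16.4 and 18.4 in the SHP099 libraries. Here too the SHP099 libraries were lowest throughout, with 623, 1040 and 1280 reads, and the other groups overlapped. The levels of Tlr7 and Tlr8 moved together over the 9 libraries (Pearson r = 0.92, Spearman rho = 0.97, and r = 0.90 without the 2 libraries farthest from the median of Tlr7), the highest r among the 28 pairs of tested receptors. These libraries belong to 3 groups, so the value is a description and carries no test.

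Tlr13, a sensor of bacterial ribosomal RNA that humans lack, is also on chromosome X, 61082202 bases from Tlr8. Its FPKM was 40.7, 34.5 and 47.9 in the wild-type, 49.6, 55.3 and 57.3 in the M-Shp2-/- and 50.7, 62.8 and 63.5 in the SHP099 libraries. Every library of both other groups lay above every wild-type library, and with SHP099 this is opposite to Tlr7 and Tlr8. Tlr3, which binds double-stranded RNA and signals through TRIF, had an FPKM between 2.13 and 4.37, with its highest value in wild-type replicate 3. Exons of Tlr3 overlap Gm45542 on the opposite strand, which had a mean FPKM of 0. The strand on which reads were counted is not given in the sources used here.

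Tlr9, the sensor of unmethylated CpG DNA, was scarce. It had 107, 75 and 81 reads in the wild-type, 187, 170 and 35 in the M-Shp2-/- and 11, 13 and 32 in the SHP099 libraries. The SHP099 libraries were below all others, and the M-Shp2-/- libraries split, with replicates 1 and 2 above and replicate 3 below every wild-type library. Tlr9 failed the filter on low values and entered only the fit without a filter, over 26663 genes, where SHP099 differed from wild type by -0.46 on the log2(FPKM + 1) scale with an adjusted p of 0.0949 from limma (n = 3 per group). The mean FPKM was 0.555 in wild type and 0.125 with SHP099. At such low levels the pseudocount of 1 makes this difference smaller than that of the FPKM themselves. Markers of B cells, which carry Tlr9, were read beside it. The FPKM of 4 B cell markers summed (Cd79a, Cd79b, Ms4a1 and Pax5, taken without Ighm after the values were seen) was 2.59, 2.51 and 1.44 in the wild-type, 10.1, 4.27 and 2.0005 in the M-Shp2-/- and 0.932, 0.693 and 1.12 in the SHP099 libraries. The SHP099 libraries were lowest in this sum as well, and M-Shp2-/- replicates 1 and 2 highest, but M-Shp2-/- replicate 3 was above wild-type replicate 3 in the sum and below it in Tlr9. The single markers differed in this. Ms4a1, which encodes the B cell surface protein CD20, was at 0.266, 0.170 and 0.212 FPKM in the wild-type, 0.859, 0.530 and 0.106 in the M-Shp2-/- and 0.0789, 0.0261 and 0.0316 in the SHP099 libraries, each M-Shp2-/- and SHP099 library on the same side of the wild type as in Tlr9. Pax5, a transcription factor of B cells, was at 0.342 in M-Shp2-/- replicate 3, also below every wild-type library (0.514 to 1.55), but overlapped between wild type and SHP099. Cd79b, a chain of the B cell receptor complex, was at 0.0343, 0.284 and 0.179 FPKM in the wild-type, 1.02, 0.666 and 0.317 in the M-Shp2-/- and 0.121, 0.191 and 0.469 in the SHP099 libraries. It followed Tlr9 in M-Shp2-/- replicates 1 and 2, the highest libraries, but not in M-Shp2-/- replicate 3 or with SHP099. Cd79a was at 0.742, 0.889 and 0.533 in the wild-type, 3.18, 1.23 and 1.23 in the M-Shp2-/- and 0.109, 0.241 and 0.532 in the SHP099 libraries. Its SHP099 libraries were below the wild type, replicate 3 by a small margin, and all M-Shp2-/- libraries were above it. With Ighm, the most abundant of the 5 markers, the list summed to 8.56, 16.1 and 46.3 in the wild-type, 30.1, 14.1 and 177 in the M-Shp2-/- and 20.2, 13.5 and 27.6 in the SHP099 libraries, and followed Ighm, which was 175 in M-Shp2-/- replicate 3 and overlapped between wild-type and SHP099 libraries. None of these B cell markers was at 0 in all libraries. The part of B cells in the Tlr9 values was not tested.

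**Figure D2:**
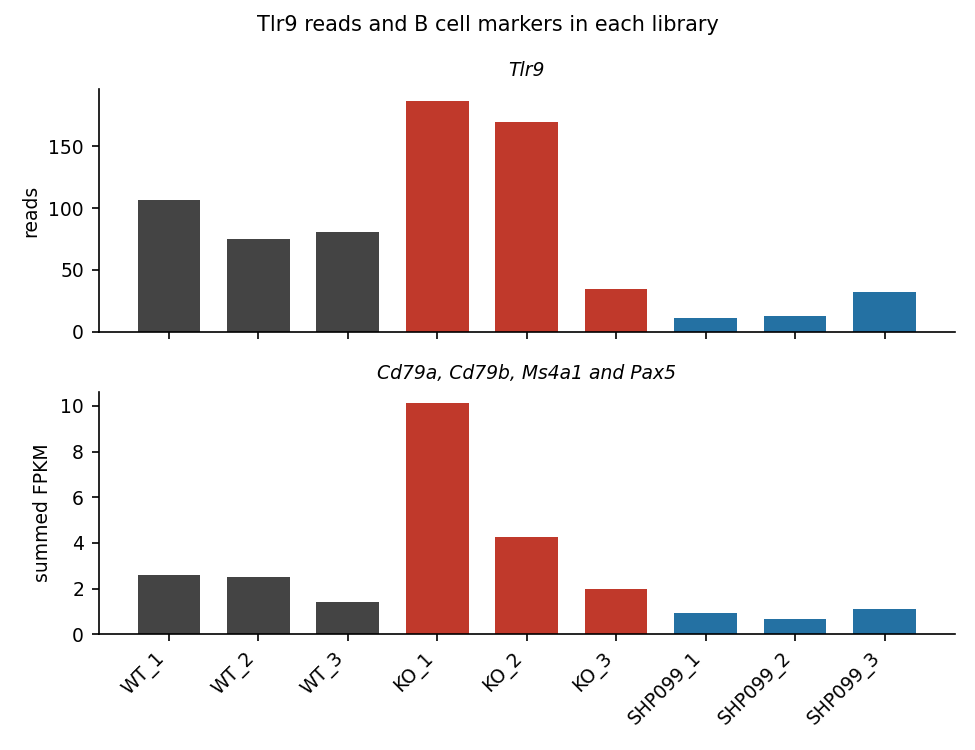
Reads of Tlr9 in each library (top) and the summed FPKM of 4 B cell markers in the same library (bottom), coloured by group (wild type grey, M-Shp2-/- red, SHP099 blue; KO marks M-Shp2-/-). Both are highest in M-Shp2-/- replicates 1 and 2, at 187 and 170 reads, and both are lower in every SHP099 library than in any wild-type library. M-Shp2-/- replicate 3 is below all wild-type libraries in Tlr9 and not in the sum.

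Among the surface receptors, Tlr2 was lower in SHP099-treated cells, and the others overlapped between groups. Tlr2, which pairs with Tlr1 or Tlr6 to bind bacterial lipoproteins, lies on chromosome 3 from 83836272 to 83841767. Its FPKM was 366, 436 and 424 in the wild-type, 369 and 369.7 in M-Shp2-/- replicates 1 and 2, 289 in M-Shp2-/- replicate 3, and 271, 291 and 306 in the SHP099 libraries. The SHP099 libraries were all below the wild type, and M-Shp2-/- replicate 3 lay among them while replicates 1 and 2 did not. The partner Tlr1, for triacylated lipoproteins, had an FPKM between 42.3 and 73.6, and the partner Tlr6, for diacylated lipoproteins, between 19.6 and 31.7. Tlr1 and Tlr6 lie 18467 bases apart on chromosome 5 and are close in sequence, and how the counting treated reads that match both is not given in the sources used here, so their split is uncertain. Tlr4, the lipopolysaccharide receptor, was between 15.6 and 29.1 FPKM, with M-Shp2-/- replicate 3 at 27.3 against 15.6 and 15.6 in M-Shp2-/- replicates 1 and 2. Tlr5, the flagellin receptor, had 9 reads in all 9 libraries together, of which 6 were in wild-type replicate 1. Every other library had 0 or 1 read of Tlr5, at or under the floor of 3 reads, and no fold is given.

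Because Tlr2 and Tlr8 were the surface and the endosomal receptor with the largest SHP099 differences of their class among the genes called, their promoters are shown. RefSeq promoters of GRCm38.p6 (250 bases before to 50 bases after the annotated start) were at hand for 8 of the 10 members, without Tlr4 and Tlr7. Both are read on the minus strand, Tlr2 at chr3:83841559-83841858 and Tlr8 at chrX:167264280-167264579. Capitals mark matches on either strand to the NF-kappaB motif (by name, as its letters include ambiguous bases) and to the ETS motif GGAAGT.
Tlr2: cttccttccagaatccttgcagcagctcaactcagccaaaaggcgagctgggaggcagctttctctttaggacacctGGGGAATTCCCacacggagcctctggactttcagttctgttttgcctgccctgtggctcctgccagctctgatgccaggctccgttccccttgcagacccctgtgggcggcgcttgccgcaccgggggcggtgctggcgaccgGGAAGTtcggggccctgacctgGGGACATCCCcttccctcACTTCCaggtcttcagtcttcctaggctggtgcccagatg
Tlr8: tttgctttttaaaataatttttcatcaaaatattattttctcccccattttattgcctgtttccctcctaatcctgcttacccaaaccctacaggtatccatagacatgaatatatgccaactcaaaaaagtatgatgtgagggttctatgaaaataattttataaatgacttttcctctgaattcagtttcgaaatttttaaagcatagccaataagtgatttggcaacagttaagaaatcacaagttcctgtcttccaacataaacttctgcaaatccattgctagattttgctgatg
The Tlr2 promoter holds NF-kappaB matches at bases 78 to 87 and 79 to 88, which overlap each other, and at bases 243 to 252, and GGAAGT at bases 221 to 226 and, on the other strand, 261 to 266. Of 32851 promoters of this length, 4.51% hold the NF-kappaB motif and 23.8% hold GGAAGT. Neither these motifs nor GAAANNGAAA (3.44% of promoters) or TGACTCA (5.20%) occur in the windows of Tlr8, Tlr13 and the surface receptor Tlr5. NF-kappaB letters also occur in the Tlr3 promoter, TGACTCA in that of Tlr9, and GAAANNGAAA at 2 overlapping places in 1 of the 2 Tlr6 promoters. GGAAGT also occurs in a promoter of Tlr1, in both of Tlr6 and in that of Tlr9. A match is a description of letters and not a binding site, and a window without a match says only that these letters are not in it.

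The comparison of SHP099 with wild type asks how SHP2 inhibition goes with receptor RNA under IMQ. Of the 8 receptors tested, 3 fell and none rose: Tlr8 and Tlr7 among the endosomal and Tlr2 among the surface receptors. The test was limma on log2(FPKM + 1), run on 11450 genes whose mean FPKM was 1 or more, and a gene counts as called when its adjusted p is 0.05 or less. Tlr5 and Tlr9 did not reach that mean, and each of the 8 others was above 1 FPKM in every library. Among all genes tested 6.96% were called, 521 higher and 276 lower. The 3 receptors called were 1 of 4 surface and 2 of 4 endosomal receptors tested, and whether the classes differ was not tested.

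Tlr8 had the largest log2 difference of the 8 receptors tested, from 56.7 ± 17.7 in wild type to 14.6 ± 4.98 with SHP099 (FPKM, SD, n = 3 per group). On the log2(FPKM + 1) scale it fell by 1.90 (95% interval -2.64 to -1.16, adjusted p = 0.0228 from limma, n = 3 per group), lower in 3 of 3 libraries. Tlr7 went from 93.1 ± 8.38 to 55.4 ± 10.8 FPKM (SD, n = 3 per group). Its log2 difference was -0.75 (95% interval -1.09 to -0.42, adjusted p = 0.0314 from limma, n = 3 per group). Tlr2 went from 409 ± 37.2 to 289 ± 17.6 FPKM (SD, n = 3 per group), a log2 difference of -0.49 (95% interval -0.72 to -0.27, adjusted p = 0.0325 from limma, n = 3 per group). So the largest of the 3 differences was in the endosomal class and the most abundant of the 3 genes was in the surface class.

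The other 5 receptors did not pass the threshold. Tlr13 was higher in every SHP099 library, at 59.0 ± 7.20 against 41.0 ± 6.70 FPKM (SD, n = 3 per group), a log2 difference of 0.52 with an adjusted p of 0.0739 from limma (n = 3 per group). Tlr3 was lower in every SHP099 library, with a log2 difference of -0.32 and an adjusted p of 0.318 from limma, and a difference of -0.14 without wild-type replicate 3. Tlr4, Tlr6 and Tlr1 overlapped between the groups, with log2 differences of -0.34, 0.30 and -0.09. For 5 of the 8 receptors the values of the 2 groups did not overlap, 4 lower and 1 higher with SHP099, against 34.6% of all genes tested. By the thresholds of the study (adjusted p up to 0.005 with a log2 difference of 1 or more in either direction) 0 receptors were called in limma, against 0.166% of all genes. Limma's voom on the reads recovered from FPKM, as an alternative test, called the same 3 receptors.

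The calls depend on single libraries, on the filter, on the trend and on the scaling. Without the filter on low values 0 of 10 receptors were called in limma, with Tlr2 at an adjusted p of 0.0949, Tlr8 at 0.103 and Tlr7 at 0.111. Without the trend in eBayes the call of Tlr2 was lost (0.0524). Leaving out SHP099 replicate 1 or SHP099 replicate 2 left 0 receptors called in limma, with Tlr8 at an adjusted p of 0.0651 and 0.109. Without SHP099 replicate 3 only Tlr7 was called (adjusted p = 0.0386 from limma), without wild-type replicate 1 only Tlr2 (0.0406), and without wild-type replicate 2 only Tlr8 (0.0237). Without wild-type replicate 3 there were 4 calls, with Tlr13 added at a log2 difference of 0.63 (0.0345). The count over all genes moved as well, from 797 to 90, 47 and 116 without SHP099 replicates 1, 2 and 3, to 284 and 399 without wild-type replicates 1 and 2, and to 1273 without wild-type replicate 3. The adjusted p of limma ranged over the alternatives from 0.0193 to 0.109 for Tlr8, from 0.0237 to 0.142 for Tlr7, from 0.0279 to 0.148 for Tlr2 and from 0.0345 to 0.344 for Tlr13. Every alternative kept the sign of these 4 differences: -2.16 to -1.60 for Tlr8, -0.90 to -0.67 for Tlr7, -0.64 to -0.45 for Tlr2 and 0.37 to 0.63 for Tlr13.

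The median log2 difference of all genes tested was 0.13 with SHP099 and 0.15 in M-Shp2-/- cells, and median-of-ratios scaling brought both to -0.01. On that scale the SHP099 differences were -2.04 for Tlr8, -0.90 for Tlr7, -0.64 for Tlr2 and 0.37 for Tlr13. Of the receptors, 1 was then called, Tlr8 (adjusted p = 0.0278 from limma, n = 3 per group), with Tlr7 at 0.0541 and Tlr2 at 0.0545, against 4.46% of all genes. The split of all calls became 172 higher and 339 lower. Without scaling, the median over the 8 receptors tested was -0.33, at -0.22 for the surface and -0.53 for the endosomal receptors.

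**Figure D3:**
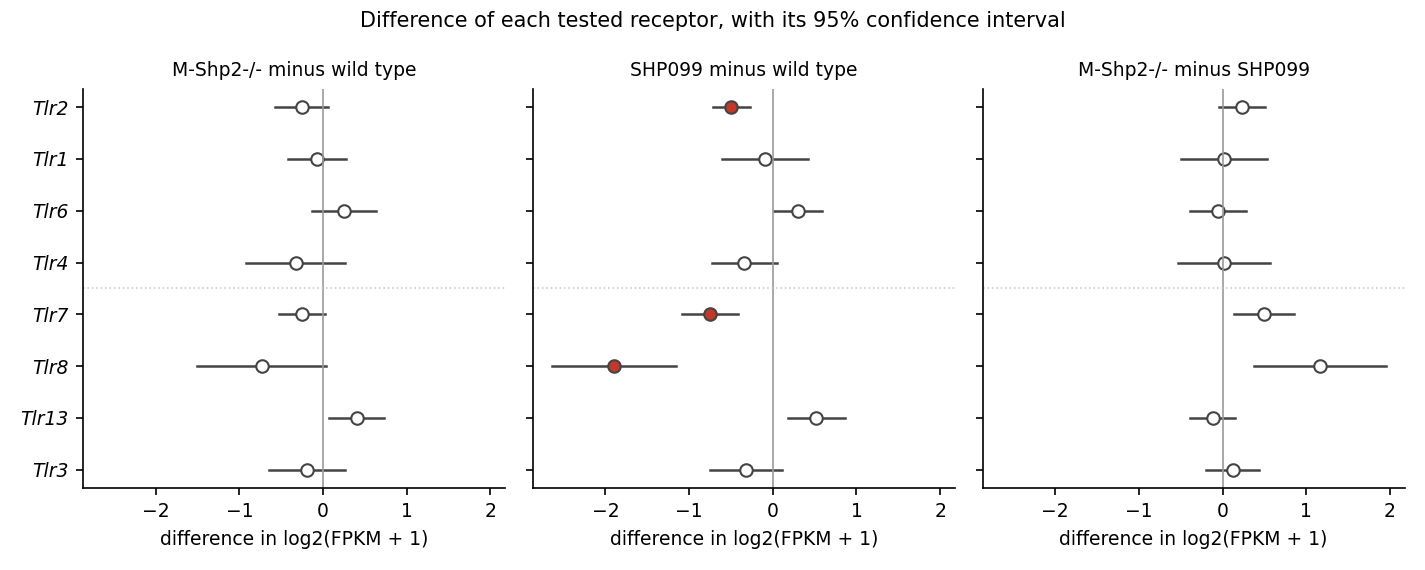
Log2 difference of each tested receptor with its 95% confidence interval from limma (n = 3 per group), for M-Shp2-/- minus wild type, SHP099 minus wild type and M-Shp2-/- minus SHP099. Filled points have an adjusted p up to 0.05, and a dotted line divides surface receptors (above) from endosomal receptors (below). The filled points are Tlr2, Tlr7 and Tlr8 with SHP099, at -0.49, -0.75 and -1.90.

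The comparison of M-Shp2-/- with wild type asks the same of the deletion of SHP2 in myeloid cells. No receptor was called: limma found 0 of 8, against 0.0873% of all genes tested, and voom 0 of 8. At an unadjusted p under 0.05, 1204 of the 11450 genes passed in limma, with Tlr13 as the receptor among them. The count was 469 without M-Shp2-/- replicate 1 and 2280 without M-Shp2-/- replicate 3. In the latter fit Tlr4 and Tlr6 passed (unadjusted p = 0.0139 and 0.0490 from limma) and Tlr13 did not (0.0598). Tlr13 was higher in every M-Shp2-/- library, at 54.1 ± 3.96 FPKM (SD, n = 3) against the wild-type level above, a log2 difference of 0.40 (95% interval 0.07 to 0.73, adjusted p = 0.465 from limma, n = 3 per group). It was the 1 receptor of 8 whose groups did not overlap, against 19.1% of all genes. Relative to the median of all genes, with median-of-ratios scaling, its difference was 0.23, and those of Tlr8, Tlr7 and Tlr2 were -0.91, -0.43 and -0.44. On that scale Tlr13 no longer passed an unadjusted p of 0.05 in limma (0.289). Tlr8, Tlr7 and Tlr2 did (0.0312, 0.0319 and 0.0196), as did 917 of the 11450 genes. Their adjusted p was 0.596, 0.596 and 0.529 from limma, so none was called.

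Tlr8 was at 33.9 ± 12.1 and Tlr7 at 78.1 ± 9.09 FPKM (SD, n = 3) in M-Shp2-/- cells. Their log2 differences from wild type were -0.73 (95% interval -1.50 to 0.03) and -0.25 (95% interval -0.53 to 0.03), both with an adjusted p of 0.478 from limma (n = 3 per group). Tlr2 was at 343 ± 46.3 FPKM, with a log2 difference of -0.26 (95% interval -0.57 to 0.06). Intervals that reach past 0 leave a difference in either direction possible and do not show that the genotypes were alike. Tlr4, Tlr3, Tlr1 and Tlr6 had log2 differences of -0.33, -0.20, -0.07 and 0.25, and that of Tlr3 was -0.02 without wild-type replicate 3. The median over the 8 receptors was -0.22, at -0.17 for the surface and -0.22 for the endosomal receptors. Without M-Shp2-/- replicate 3 the count of receptors called was again 0 in limma, with log2 differences of -0.48 for Tlr8, -0.20 for Tlr7, -0.14 for Tlr2, -0.59 for Tlr4, -0.14 for Tlr3, 0.00211 for Tlr1, 0.37 for Tlr6 and 0.36 for Tlr13. By the thresholds of the study 0 receptors were called, against 0.00873% of all genes.

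M-Shp2-/- and SHP099 cells were compared directly, since a call with SHP099 and none in M-Shp2-/- cells does not show that they differ. With all libraries limma called 0 of 8 receptors, against 0.0699% of all genes, and voom called 0 of 8. At an unadjusted p under 0.05, 1437 genes passed in limma. Tlr8 and Tlr7 were higher in every M-Shp2-/- library than in any SHP099 library, with log2 differences of 1.16 (95% interval 0.38 to 1.95, adjusted p = 0.300 from limma, n = 3 per group) and 0.50 (95% interval 0.14 to 0.86, adjusted p = 0.324 from limma). These were the 2 of 8 receptors whose groups did not overlap, against 17.7% of all genes. Tlr2 differed by 0.24 and Tlr13 by -0.12.

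Without M-Shp2-/- replicate 3 the result was another. Tlr8 was then called, with a log2 difference of 1.42 (adjusted p = 0.0248 from limma, 2 against 3 libraries), as was Tlr2 with 0.35 (adjusted p = 0.0200 from limma), and Tlr7 had 0.55 (adjusted p = 0.0570 from limma). That is 2 of 8 receptors, against 19.9% of all genes, or 2277 genes in place of 8. Over the alternatives the adjusted p of this comparison ranged from 0.0248 to 0.749 for Tlr8, from 0.0200 to 0.842 for Tlr2 and from 0.0570 to 0.749 for Tlr7. By the thresholds of the study 0 of 8 receptors were called with all libraries, against 0% of all genes.

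Taken as classes, the endosomal receptors made up a share of the family that overlapped between the groups. Their FPKM summed to 195 ± 28.6 in wild type, 169.6 ± 21.7 in M-Shp2-/- and 131 ± 20.1 in SHP099 cells, and that of the surface receptors to 519.7 ± 26.8, 450.1 ± 49.8 and 398 ± 35.3 (SD, n = 3 per group). The endosomal share of the summed FPKM was 29.6%, 23.1% and 28.9% in the wild-type, 25.4%, 28.5% and 28.2% in the M-Shp2-/- and 23.8%, 24.2% and 26.3% in the SHP099 libraries. The groups overlapped, at 27.2% ± 3.58, 27.4% ± 1.73 and 24.8% ± 1.33 (SD, n = 3 per group). Without M-Shp2-/- replicate 3 the M-Shp2-/- mean was 27.0% (n = 2), with sums of 177 for the endosomal and 479 for the surface receptors. These shares are a description over the members, with no test. Without Tlr13 the share was 22.8% in wild type, 20.3% in M-Shp2-/- (20.6% without replicate 3) and 15.3% in SHP099 cells, and the overlap disappeared: the SHP099 libraries ran from 14.2% to 17.2% and all others from 19.0% to 25.3%. Tlr13 was the 1 tested endosomal receptor with a positive difference with SHP099, so leaving it out favours a lower SHP099 share by construction. The share also depends on the length scale, being 17.2%, 17.7% and 16.1% when lengths are those of the longest transcripts.

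The makeup of the endosomal class was described in the same way, with no test. Shares of a sum are tied, so lower Tlr7 or Tlr8 by itself raises the share of Tlr13. Tlr13 held 21.1% ± 1.24 of the endosomal FPKM in wild type (19.7% to 22.2%), 32.2% ± 4.43 in M-Shp2-/- (28.4% to 37.1%) and 45.1% ± 3.17 in SHP099 cells (41.8% to 48.1%; SD, n = 3 per group). The ranges of the 3 groups did not overlap. For the FPKM of single genes, the groups did not overlap in 19.1% of genes tested for M-Shp2-/- against wild type. That was 34.6% for SHP099 against wild type and 17.7% for M-Shp2-/- against SHP099. Tlr8 held 28.7% ± 6.03, 19.6% ± 4.71 and 10.9% ± 2.52, and its SHP099 libraries (7.99% to 12.6%) lay below all others. Tlr7 held 48.2% ± 5.13, 46.1% ± 0.538 and 42.1% ± 4.16, with ranges that overlapped. The ratio of Tlr7 to Tlr13 FPKM was 2.29 ± 0.205 in wild type, 1.45 ± 0.175 in M-Shp2-/- and 0.941 ± 0.150 in SHP099 cells, so that Tlr13 exceeded Tlr7 in FPKM in part of the SHP099 libraries (0.775 to 1.07). In the surface class Tlr2 held 78.5% ± 3.18, 76.0% ± 2.51 and 72.9% ± 2.45. Without M-Shp2-/- replicate 3 the M-Shp2-/- means (n = 2) were 29.7% for Tlr13, 22.1% for Tlr8 and 45.8% for Tlr7 in the endosomal class, 77.2% for Tlr2 in the surface class and 1.54 for the ratio of Tlr7 to Tlr13.

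**Figure D4:**
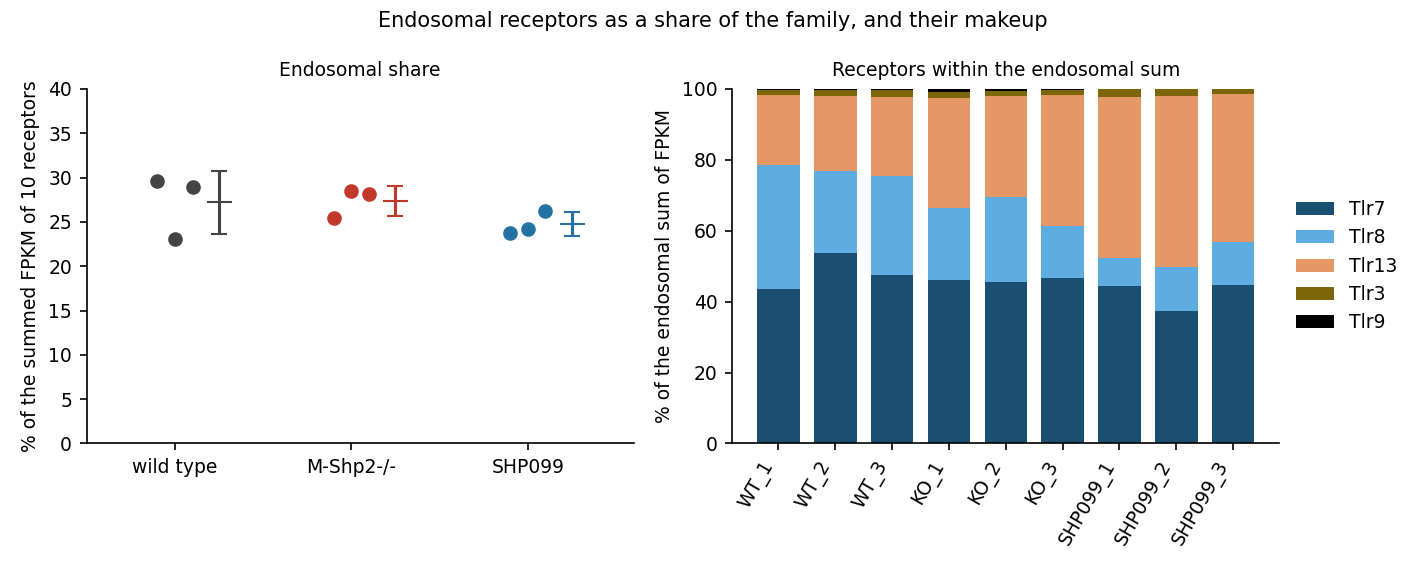
Left, endosomal receptors as a percentage of the summed FPKM of the 10 receptors, with points for single libraries and bars for the mean and SD (n = 3). Right, share of each endosomal receptor in the endosomal sum of each library (KO marks M-Shp2-/-). The shares on the left overlap, and on the right the Tlr13 part runs from 19.7% to 22.2% in wild-type and from 41.8% to 48.1% in SHP099 libraries.

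Genes whose levels followed those of the receptors most closely were listed for Tlr7 and for Tlr2, the most abundant surface receptor, over the 9 libraries and 11450 genes. For Tlr7 these were the processed pseudogene Gm3788 (r = 0.95, rho = 0.95), the apoptosis regulator gene Bcl2a1b (r = 0.93, rho = 0.88) and the cyclin gene Ccnd2 (r = 0.93, rho = 0.98). Without the 2 libraries farthest from the median of Tlr7 the r values were 0.88, 0.87 and 0.92. For Tlr2 they were the lincRNA 1110002J07Rik (r = 0.95, rho = 0.95), the transcription factor gene E2f5 (r = 0.95, rho = 0.87) and Gm9844 (r = 0.95, rho = 0.83), and r was 0.95, 0.94 and 0.94 without the 2 libraries farthest from the median of Tlr2. As the highest of 11450 values over libraries of 3 groups, they describe likeness of pattern only. Bcl2a1b and pseudogenes have close relatives in sequence, and their reads may be shared.

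Genes that act with the receptors, together with cytosolic nucleic acid sensors, were taken from 8 lists. These hold 74 genes of the table, 70 of them tested. With SHP099, 4 of the 70 were called in limma, 1 higher and 3 lower, or 5.71% against the 6.96% of all genes, with a median log2 difference of -0.07 against 0.13. In M-Shp2-/- cells 0 of the 70 were called in limma against wild type, against 0.0873% of all genes, with a median of -0.02 against 0.15. At an unadjusted p under 0.05 there were 12 in limma, against 1204 of the 11450 genes, and voom called 0. Without M-Shp2-/- replicate 3 the count was again 0, against 0.0699% of all genes, with a median of 0.00923 against 0.18. Between M-Shp2-/- and SHP099 cells 0 were called in limma, against 0.0699% of all genes, and 1 by voom, against 14 of 11348 genes. At an unadjusted p under 0.05 there were 7 in limma, against 1437 of the 11450 genes. Without M-Shp2-/- replicate 3 there were 24 calls, or 34.3% against 19.9% of all genes in that fit. Among them were 3 coreceptors, 3 chaperones and 5 transcription factors. The SHP099 count was 0 without SHP099 replicate 1, 0 without SHP099 replicate 2 and 0 without SHP099 replicate 3. It was 4 without wild-type replicate 1 (5.71% against 2.48% of all genes in that fit), though not the same 4, as no coreceptor was then called. Without wild-type replicate 2 it was 2 (2.86% against 3.48%) and without wild-type replicate 3 it was 15 (21.4% against 11.1%). The counts of the single lists below are those with all libraries.

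Of the coreceptors and accessory proteins of surface receptors, 2 of 5 tested genes fell with SHP099, or 40% against 6.96% of all genes. Ly86, which encodes MD-1, the partner of the TLR4-like protein RP105, was at 12.7, 10.6 and 17.2 FPKM in the wild-type, 10.9, 10.8 and 6.85 in the M-Shp2-/- and 6.05, 5.96 and 6.79 in the SHP099 libraries. Its SHP099 libraries were below all others, with a log2 difference from wild type of -0.97 (adjusted p = 0.0268 from limma, n = 3 per group, 0.0165 to 0.132 over the alternatives). Cd36, a scavenger receptor that aids TLR2 with TLR6, was at 319, 233 and 198 FPKM in the wild-type, 265, 299 and 264 in the M-Shp2-/- and 156, 146 and 126 in the SHP099 libraries. It too was lowest in the SHP099 libraries, with a log2 difference of -0.79 from wild type (adjusted p = 0.0454 from limma, n = 3 per group, 0.0196 to 0.170 over the alternatives). Without SHP099 replicate 1, 2 or 3 the adjusted p was 0.111, 0.132 and 0.0784 for Ly86 and 0.122, 0.170 and 0.126 for Cd36, so both calls were lost, as they were without wild-type replicate 1 (0.0660 and 0.0679) and, for Cd36, without wild-type replicate 2 (0.0807). Without the filter both were lost (0.0973 and 0.159), and without the trend in eBayes Cd36 was (0.0633). Between M-Shp2-/- cells and wild type the log2 difference was -0.47 for Ly86 and 0.17 for Cd36, and -0.27 and 0.20 without M-Shp2-/- replicate 3. Cd14, the lipopolysaccharide coreceptor and the most abundant gene of the list, chosen after its values were seen, had a log2 difference of -0.43 (adjusted p = 0.222 from limma) and overlapped between groups.

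Of the 10 chaperones and trafficking factors, 1 rose with SHP099, or 10% against 6.96% of all genes. Without wild-type replicate 3, 2 were called, or 20% against 11.1% of all genes. Slc15a4, an endolysosomal transporter of histidine and peptides needed for TLR7 and TLR9 signaling, was at 28.4, 25.3 and 24.8 FPKM in the wild-type, 39.7, 40.9 and 31.8 in the M-Shp2-/- and 36.2, 37.6 and 36.0 in the SHP099 libraries. Every library of both other groups was above every wild-type library. The log2 difference was 0.47 with SHP099 (adjusted p = 0.0279 from limma, n = 3 per group, 0.0228 to 0.149 over the alternatives, and 0.0948 with median-of-ratios scaling at a difference of 0.32) and 0.49 in M-Shp2-/- cells (adjusted p = 0.433 from limma), or 0.60 without M-Shp2-/- replicate 3 (0.186). The SHP099 call was lost without SHP099 replicate 1 (0.120), SHP099 replicate 2 (0.149), SHP099 replicate 3 (0.0856) or wild-type replicate 2 (0.0715), without the filter (0.0642) and with the replicate number as a block (0.0504). Unc93b1, the chaperone of the endosomal receptors, was at 287 ± 38.7 FPKM in wild type and 264 ± 23.9 with SHP099 (SD, n = 3 per group), a log2 difference of -0.11 (adjusted p = 0.590 from limma). It was chosen after its values were seen.

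With all libraries none of the 5 proteases of endosomal receptors was called in limma in any comparison. With SHP099 against wild type 1 was called without wild-type replicate 1 (20% against 2.48% of all genes in that fit) and 1 without wild-type replicate 3 (20% against 11.1%). Between M-Shp2-/- and SHP099 cells 1 was called without M-Shp2-/- replicate 3 (20% against 19.9%). The most abundant, the cathepsin gene Ctsb, had a log2 difference of -0.07 with SHP099, while the median of the list was -0.37 against 0.13 for all genes. Of the 5 tested adaptors 0 were called with all libraries, but 2 were with SHP099 against wild type without wild-type replicate 3, or 40% against 11.1% of all genes in that fit. Between M-Shp2-/- and SHP099 cells 3 were called without M-Shp2-/- replicate 3, or 60% against 19.9% of all genes in that fit. Pik3ap1, an adaptor that links Toll-like receptors to phosphoinositide 3-kinase, was the most abundant of them and differed by -0.04, and Myd88, the adaptor shared by most of the family and chosen after its values were seen, by 0.02. Of 17 kinases and ubiquitin ligases 0 were called in limma with all libraries, with the interferon-inducing kinase gene Ikbke at -0.30 (adjusted p = 0.0726 from limma, n = 3 per group). In the same 2 fits with a library left out 3 and 4 were called, or 17.6% against 11.1% and 23.5% against 19.9% of all genes. Of 9 transcription factors 1 fell with SHP099, or 11.1% against 6.96% of all genes, and 3 were called without wild-type replicate 3, or 33.3% against 11.1%. The gene called with all libraries was Nfkb2, which encodes the p100 precursor of noncanonical NF-kappaB. It was at 276, 247 and 272 FPKM in the wild-type, 207, 206 and 193 in the M-Shp2-/- and 169.9, 175 and 178 in the SHP099 libraries. The groups were fully separated, with a log2 difference of -0.60 with SHP099 (adjusted p = 0.0131 from limma, n = 3 per group, 0.00691 to 0.0843 over the alternatives) and -0.39 in M-Shp2-/- cells (adjusted p = 0.388 from limma), or -0.35 without M-Shp2-/- replicate 3 (0.224). Its call was lost without SHP099 replicate 1 (0.0655), SHP099 replicate 2 (0.0843) or SHP099 replicate 3 (0.0533). Exons of Nfkb2 overlap Psd on the opposite strand (mean FPKM 39.7), those of Ctsb overlap Fdft1 (23.9), those of Myd88 overlap Acaa1a (66.7) and those of Ikbke overlap Gm28913 (8.59), so reads of these genes and their partners may be mixed.

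The 11 tested negative regulators gave 0 calls in limma with all libraries. With SHP099 against wild type 1 was called without wild-type replicate 3 (9.09% against 11.1% of all genes in that fit). Between M-Shp2-/- and SHP099 cells 2 were called without M-Shp2-/- replicate 3 (18.2% against 19.9%). The most abundant, the NF-kappaB inhibitor gene Nfkbia, differed by -0.05 with SHP099, and the median of the list was 0.08. Socs1, chosen after its values were seen, had the largest difference of the list with SHP099, -1.87 (adjusted p = 0.0534 from limma, n = 3 per group). The cytosolic nucleic acid sensors, which detect RNA and DNA outside endosomes, gave 0 calls among 8 genes as well. Their median log2 difference, however, was -0.74 in M-Shp2-/- cells and -0.71 with SHP099, against 0.15 and 0.13 for all genes. The list was highest in wild-type replicate 3, which both comparisons share: it summed to 153, 207 and 362 FPKM in the wild-type, 123, 135 and 134 in the M-Shp2-/- and 153, 118 and 168 in the SHP099 libraries. Without wild-type replicate 3 the medians were -0.40 in M-Shp2-/- cells and -0.25 with SHP099, against 0.08 and 0.06 for all genes. They were -1.06 and -0.89 without wild-type replicate 1, and the SHP099 median was -0.46 without SHP099 replicate 2. Without M-Shp2-/- replicate 3 the M-Shp2-/- median was -0.78. With SHP099, 1 of the 8 was called without wild-type replicate 1 (12.5% against 2.48% of all genes in that fit) and 1 without wild-type replicate 3 (12.5% against 11.1%). Between M-Shp2-/- and SHP099 cells 3 were called without M-Shp2-/- replicate 3 (37.5% against 19.9%). Ifih1, the sensor of long double-stranded RNA and the most abundant of the list, was at 28.8, 40.4 and 70.7 FPKM in the wild-type, 24.1, 26.6 and 27.3 in the M-Shp2-/- and 31.4, 27.4 and 35.1 in the SHP099 libraries. Wild-type replicate 3 was far above the other libraries, and the wild-type and SHP099 groups overlapped (adjusted p = 0.357 from limma, n = 3 per group).

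**Figure D5:**
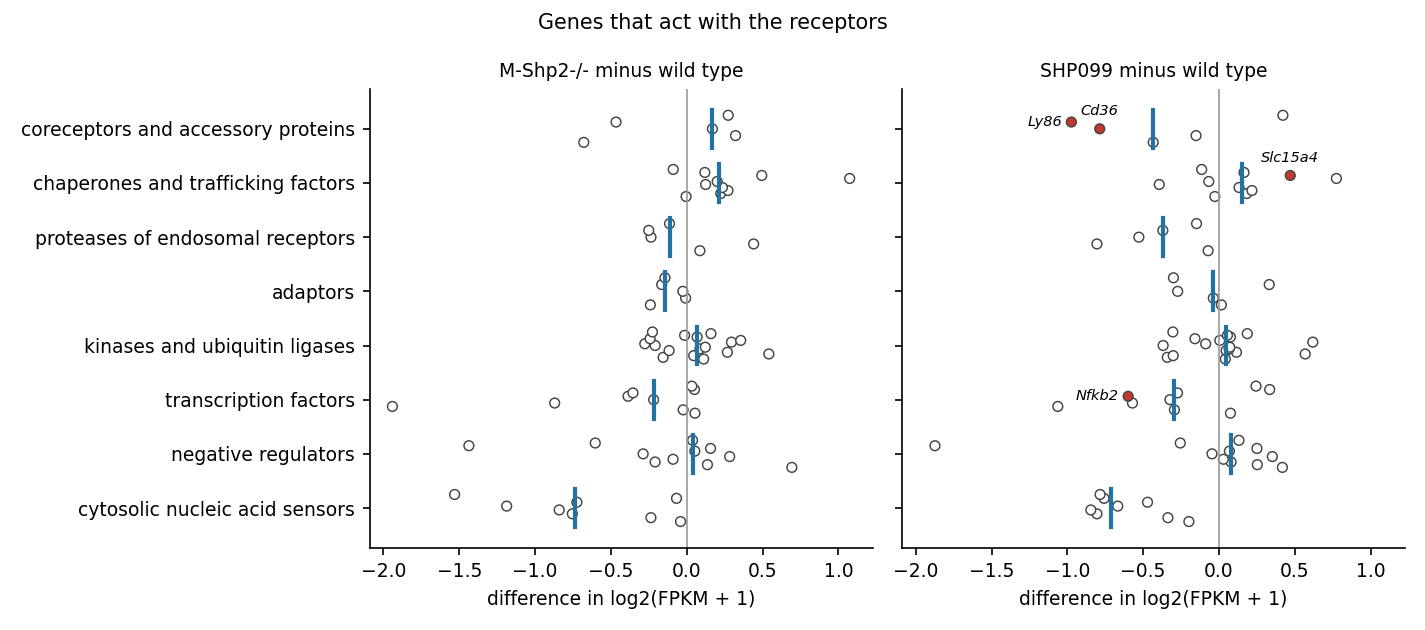
Log2 difference from wild type of the 70 tested genes of 8 lists, for M-Shp2-/- (left) and SHP099 (right). The lists cover the Toll-like receptor pathway and, as a list of its own, cytosolic nucleic acid sensors. Circles are genes, filled and named where the adjusted p is up to 0.05, and vertical bars are the medians of the lists. The 4 named genes are Ly86, Cd36, Slc15a4 and Nfkb2. The cytosolic sensors have the lowest medians, -0.74 and -0.71, or -0.40 and -0.25 without wild-type replicate 3.

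Markers of other cells varied among the libraries alongside the receptors. In the macrophage list Csf1r, the receptor of the growth factor CSF1, rose with SHP099 from 78.9 ± 27.9 to 199 ± 16.0 FPKM (SD, n = 3 per group), a log2 difference of 1.38 (adjusted p = 0.0222 from limma, n = 3 per group). Among the monocyte markers Chil3, which encodes a chitinase-like protein, fell from 151 ± 62.4 to 56.5 ± 1.10 FPKM (SD, n = 3 per group), a log2 difference of -1.32 (adjusted p = 0.0322 from limma, n = 3 per group). Both calls were lost without SHP099 replicate 1, 2 or 3 in turn (adjusted p of 0.0760, 0.116 and 0.0774 for Csf1r and 0.115, 0.136 and 0.0955 for Chil3), and that of Csf1r also with median-of-ratios scaling (0.0628). Without the filter neither was called (0.0979 and 0.129), and with all 9 libraries in a fit Chil3 was not (0.0577). Exons of Csf1r overlap Hmgxb3 on the opposite strand (mean FPKM 11.2). Csf1r was chosen after its values were seen. Over the alternatives the adjusted p ran from 0.00394 to 0.116 for Csf1r and from 0.0182 to 0.136 for Chil3. The macrophage genes Adgre1 and Cd68, chosen after their values were seen, had log2 differences of -0.40 and -0.14 with SHP099 (adjusted p = 0.246 and 0.395 from limma). In M-Shp2-/- cells Adgre1 and Cd68 differed from wild type by -0.11 and 0.13 (adjusted p = 0.691 and 0.675 from limma). Without M-Shp2-/- replicate 3 these differences were -0.09 and 0.28. In M-Shp2-/- cells Lyz2 was below every wild-type library, at 5004 ± 354 against 8540 ± 1484 FPKM (SD, n = 3 per group), a log2 difference of -0.76 (adjusted p = 0.388 from limma), or -0.82 without M-Shp2-/- replicate 3 (0.223).

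The summed FPKM of the 5 monocyte markers was 125, 309 and 191 in the wild-type, 127, 124 and 232 in the M-Shp2-/- and 209.8, 244 and 242 in the SHP099 libraries. Without Chil3 the same list summed to 21.96, 87.3 and 63.7, to 79.95, 34.95 and 110.4, and to 153, 187 and 186, higher in every SHP099 library. Most of that was Hp, the haptoglobin gene, chosen after its values were seen, with a log2 difference of 2.12 with SHP099 (adjusted p = 0.0534 from limma, n = 3 per group). Ly6c2 and Plac8, chosen in the same way, had differences of -0.75 and -0.81 (adjusted p = 0.444 and 0.207 from limma) and overlapped between groups. Ccr2, which was not tested, was at 1.56, 0.671 and 1.03 FPKM in the SHP099 libraries, above every other library (0.155 to 0.575), as Hp was. The list did not move as a whole. The 6 neutrophil markers, led by S100a8, summed to 42.1, 99.6 and 60.4, to 48.1, 44.3 and 103, and to 54.2, 56.0 and 76.5 in the same order. The 5 mast cell markers, led by Kit, summed to 6.10, 4.76 and 6.01, to 2.76, 3.19 and 1.60, and to 0.675, 0.564 and 0.9695. This sum was lowest in the SHP099 libraries, but Kit itself was lowest in M-Shp2-/- replicate 3, at 0.176 FPKM. The 4 eosinophil markers, led by Siglecf, summed to at most 0.930 FPKM in any library and to 0.0186 to 0.0368 in the SHP099 libraries, which were lowest. The 8 fibroblast and mesothelial markers, led by Col1a1, summed to 64.8, 306 and 40.3 in the wild-type, 136, 51.7 and 588 in the M-Shp2-/- and 362, 139 and 102 in the SHP099 libraries, and were highest in M-Shp2-/- replicate 3. The 6 T cell markers, led by Lck, summed to 1.95 to 7.35 FPKM over the 9 libraries, and the 5 plasmacytoid dendritic cell markers, led by Bst2, to 204 to 402. The 6 dendritic cell markers, led by Zbtb46, summed to 0.855, 0.829 and 0.821 in the SHP099 libraries and to 0.858 to 1.89 in the others, so the SHP099 libraries were lowest by a small margin. Bst2 is an interferon-induced gene that macrophages also express, and it held 188 to 382 of its list. No marker of these lists was at 0 in all 9 libraries. What part these cells have in the receptor differences was not tested.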

How the data were processed

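RNA was sequenced from 9 libraries, in 3 groups of 3. Labels give group and replicate, while treatments are those of the study's methods and legends. Per the submitters' processing notes and the methods, the authors used CASAVA 1.8, aligned paired-end reads with HISAT2 2.0.4 and counted reads with HTSeq 0.9.1. The authors deposited the values as FPKM, 1 column per library. The build, annotation, counting strand and tool that made FPKM are not given in the sources used here. The study tested read counts, and here limma on log2(FPKM + 1) took the place of that test, because the deposited unit is FPKM. A table of gene spans holds no measurement. Of its 5232 genes in GENCODE M21, 91.8% have equal spans. Of the 54059 genes, 439 are not in M21 and 27396 were at 0 in every library.

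Multiplying FPKM by mean transcript length in M21 gave whole multiples of a step (within 0.05) for 96.2% to 96.7% of values up to 50 reads. Chance gives 10%, and longest transcripts give 66.5% or less. The step gives the depth, and the recovered reads entered voom only. Chi-square per degree of freedom between libraries of a group was 18.3 to 192, so no library was a repeat of another.

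Each comparison was fitted with limma 3.58.1 (lmFit, eBayes with trend) in R 4.3.3 on the 6 libraries compared, with Benjamini-Hochberg adjustment over 11450 genes, a pseudocount of 1 and a minimum mean FPKM of 1. The procedure was tested on simulated data. Sums, correlations, promoter searches and plots used Python 3.11.15, numpy 2.4.6, pandas 2.3.3, scipy 1.17.1 and matplotlib 3.10.9.

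The members and lists were chosen with earlier results of these data known. Named genes are all 10 members, Ptpn11, Tlr11, Tlr12, the genes called against wild type in each pathway list (otherwise its most abundant gene), the 3 genes most correlated with Tlr7 and with Tlr2, and the most abundant gene of each marker list with any at 0 in all libraries. Other genes were named after their values were seen. A withheld gene was left out of the lists and sums after the first run. Alternatives were pseudocounts of 0.1 and 5, no filter, a minimum of 5 FPKM, equal sums, median-of-ratios and quantile scaling, no trend, all 9 libraries in a fit, replicate number as a block, voom, the thresholds of the study, each replicate left out and, for the endosomal share, other sums. The longest transcript length was added after seeing the data.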

Additional observations from a re-analysis of the deposited data

How the results depend on the processing

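Of the alternatives for log2 differences of the receptors and named genes, 454 kept their sign and side of the threshold, 55 lost a call, 3 gained a call and 12 changed sign. The count of receptors called with SHP099 against wild type was 3, and it was 0 without a filter, 1 with median-of-ratios scaling, 0 by the thresholds of the study and 0 to 4 with each library left out. Over all genes the count was 797, and it was 74 without a filter, where 26663 genes were tested, 511 with median-of-ratios scaling and 47 to 1273 with each library left out. Between M-Shp2-/- and SHP099 cells 0 to 2 receptors were called with each library left out, and 0 to 2277 genes. Against wild type, M-Shp2-/- gave 0 receptors under every alternative run and 1 to 8 genes with each library left out, against 10.

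Sign changes were confined to differences near 0. With each library left out, Tlr1 ranged from -0.19 to 0.0250 in M-Shp2-/- against wild type, from -0.23 to 0.16 with SHP099 against wild type and from -0.23 to 0.15 between M-Shp2-/- and SHP099, Tlr4 from -0.24 to 0.14 and Tlr6 from -0.18 to 0.0680 in the last comparison. There Tlr1 was -0.00897 with median-of-ratios scaling, and Tlr4 -0.0120 with median-of-ratios scaling and -0.0123 with quantile normalization. The cause was not tested.

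The endosomal share in wild-type, M-Shp2-/- and SHP099 cells was 47.4%, 45.9% and 41.3% without Tlr2 and Tlr7, the most abundant receptor of each class, 22.8%, 20.3% and 15.3% without Tlr13, and 17.2%, 17.7% and 16.1% with the longest transcript. These follow from the genes and lengths summed.

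With the replicate number as a block, 3 receptors were called with SHP099 against wild type (591 genes), 0 in M-Shp2-/- against wild type (2 genes) and 0 between M-Shp2-/- and SHP099 (0 genes, 1640 at an unadjusted p under 0.05 in limma). Deviations of libraries with the same number correlated at -0.43 to 0.49, and those of libraries with different numbers at -0.63 to 0.54. These values show no pairing by number, but groups of 3 libraries cannot settle whether some are paired. Under the block Slc15a4 with SHP099 had an adjusted p of 0.0504 and Ptpn11 in M-Shp2-/- cells 0.157 (limma, n = 3 per group), and no other named call against wild type was lost.

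Groups of 3 libraries and a spread far above counting error limit these tests. Tlr5 and Tlr9 did not reach the minimum mean FPKM and entered only the fit without a filter, and Tlr5 had few reads as well.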
